A study of Mus musculus with 6 samples.

Results

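Of the genes that STAT3 is known to switch on, 10 that act in growth, survival and the early response to a signal were followed here by symbol among the 44556 genes counted: *Myc*, *Ccnd1*, *Pim1*, *Mcl1*, *Bcl2l1*, *Fos*, *Junb*, *Cebpb*, *Cebpd* and *Bcl3*. All 10 were found, and all 10 had enough counts to be among the 15600 genes tested. RNA was taken from the parietal bone of newborn C57BL/6 mice, with 3 OsxCre libraries and 3 libraries from littermates labelled OsxCre;Stat3fl/fl. Both genotypes carried the OsxCre transgene, in which *Osx* (*Sp7*) sequences drive Cre in pre-osteoblasts, so the controls were not Cre-free. Deletion of *Stat3* in single cell types was not measured here. The libraries held between 8193651 and 12080044 counts on genes, and a value of 3 counts stood for 0.248 to 0.366 CPM. CPM is the count relative to the total of its library. For the values of single genes except *Xist* that total was scaled by edgeR's TMM method, and for summed markers it was not scaled.

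STAT3 is a latent transcription factor of the cytoplasm. Cytokines of the IL-6 family bind receptors that share gp130, JAK kinases then phosphorylate STAT3, and its dimers enter the nucleus and bind palindromic sites of the form TTCNNNGAA. Its classical targets promote the step from G1 to S phase, hold back apoptosis through BCL2-like proteins, and include transcription factors of the AP-1 and C/EBP families that pass the signal on. Many of these genes also answer to serum, stress and mechanical load through other factors. In bone, AP-1 and C/EBP proteins act in osteoblast differentiation.

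The libraries were first set against their labels. *Stat3* had 150, 135 and 141 CPM in OsxCre and 153, 155 and 155 CPM in the libraries labelled OsxCre;Stat3fl/fl (log2 fold change 0.12, standard error 0.07, edgeR adjusted p = 0.442). Its gene-level count was thus not lower in the latter libraries, and a count over all exons of a gene includes those outside the deleted stretch. The genotypes are therefore given as labelled. The mice were described as male in the study, but *Xist* lay between 895 and 1074 CPM in all 6 libraries, and 4 genes of the Y chromosome had at most 1 count in any library. Osteoblast markers were abundant, with a summed 11041 to 16885 CPM over 6 genes, of which *Col1a1* alone had 9902 to 15152 CPM. The sums overlapped between genotypes, but 5 of the 6 genes had a negative log2 fold change. *Ibsp* fell (log2 fold change -0.66, edgeR adjusted p = 0.0213), and *Alpl* was lower without overlap (-0.54, adjusted p = 0.0578). Neutrophil markers (7 genes) summed to 280 to 470 CPM in OsxCre against 110 to 195 CPM, without overlap. Of the 6 tested, 5 had a negative log2 fold change and *Mpo* a positive one (0.18). Erythroid markers (4 genes) summed to 201 to 292 against 125 to 190 CPM, without overlap on unscaled totals. After TMM scaling, each of the 3 erythroid genes tested singly overlapped between genotypes. Macrophage markers (5 genes) summed to 191 to 216 against 223 to 228 CPM, without overlap but with a ratio of means of only 1.08. Of these 5 genes only *Cd68* was without overlap singly, and *Emr1* had a negative log2 fold change (-0.29). Skeletal muscle markers (7 genes) summed to 22365 to 23031 against 24184 to 33122 CPM, again without overlap. Of the 7 muscle genes, 6 had a positive log2 fold change, the highest that of *Myh3* (1.72, edgeR adjusted p = 0.0204). The exception was *Myh4*, which fell from 411 to 478 CPM in OsxCre to 30.6 to 39.1 CPM (log2 fold change -3.61, edgeR adjusted p = 3.87e-05). No marker was at 0 in all 6 libraries, and the part of these other cells in the results was not tested. In such tissue RNA, fewer cells of a type and less RNA per cell cannot be told apart.

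RefSeq held promoter windows (GRCm38.p6, 250 bases before to 50 after the start) for 7 of the 10 genes, 10 windows in all. *Myc*, *Ccnd1* and *Cebpd* had no entry. The *Fos* and *Junb* windows below are shown because these genes are the immediate-early pair followed here. The *Bcl2l1* window is shown because it was the only one of the 10 to hold TTCNNNNGAA. That palindrome has a longer spacer than the TTCNNNGAA form given above for STAT3. Capitals mark the TATAAA box in *Fos* (chr12:85473640-85473939, plus strand) and *Junb* (chr8:84978699-84978998, minus strand), and a TTCNNNNGAA palindrome in *Bcl2l1* (chr2:152828440-152828739, minus strand, the first of its 3 windows).
Fos: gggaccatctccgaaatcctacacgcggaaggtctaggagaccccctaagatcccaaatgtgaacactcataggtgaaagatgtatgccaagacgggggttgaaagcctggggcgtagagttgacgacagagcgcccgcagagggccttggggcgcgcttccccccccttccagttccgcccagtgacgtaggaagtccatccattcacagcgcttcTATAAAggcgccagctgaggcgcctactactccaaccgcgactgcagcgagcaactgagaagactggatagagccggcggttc
Junb: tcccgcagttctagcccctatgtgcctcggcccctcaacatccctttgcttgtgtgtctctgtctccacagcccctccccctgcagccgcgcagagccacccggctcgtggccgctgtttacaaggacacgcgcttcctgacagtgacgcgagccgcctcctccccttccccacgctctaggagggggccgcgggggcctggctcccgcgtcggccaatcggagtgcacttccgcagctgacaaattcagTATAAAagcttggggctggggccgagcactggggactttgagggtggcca
Bcl2l1: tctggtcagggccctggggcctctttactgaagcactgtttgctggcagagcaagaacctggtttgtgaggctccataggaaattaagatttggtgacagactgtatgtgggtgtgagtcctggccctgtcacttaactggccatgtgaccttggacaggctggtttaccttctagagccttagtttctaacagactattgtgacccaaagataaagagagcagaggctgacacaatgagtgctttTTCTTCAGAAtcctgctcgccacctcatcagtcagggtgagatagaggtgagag
The TATAAA box began at position -33 from the annotated start in *Fos*, at 1 in *Junb* and at 22 in *Cebpb*, where 1 is the first transcribed base. The palindrome TTCTTCAGAA of *Bcl2l1* began at position -4. Searched on both strands, TATAAA was present in 13.6% of 32851 promoter windows of the same length, and TTCNNNNGAA in 6.95%. None of the 10 windows held TTCNNNGAA (8.3% of all windows), TGACGTCA (1.79%), TGANTCA (7.81%) or a CArG box (1.63%). Such matches describe letters only, and a site outside these windows would not be seen.

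Across the 10 genes, 1 passed an adjusted p of 0.05 between the genotypes, *Cebpd*, which rose in the libraries labelled OsxCre;Stat3fl/fl. Over all genes tested 1.26% passed this test. At an unadjusted p under 0.05 there were 7 genes, with *Mcl1*, *Bcl2l1*, *Junb*, *Fos* and *Cebpd* higher and *Ccnd1* and *Bcl3* lower, against a background of 16.4%. The same 7 genes had no overlap between the 3 libraries of each genotype, where 23.0% of all genes tested had none. The median log2 fold change of the 10 was 0.30, and that of all genes tested was -0.0037. *Myc*, *Pim1* and *Cebpb* overlapped between genotypes.

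**Figure D1:**
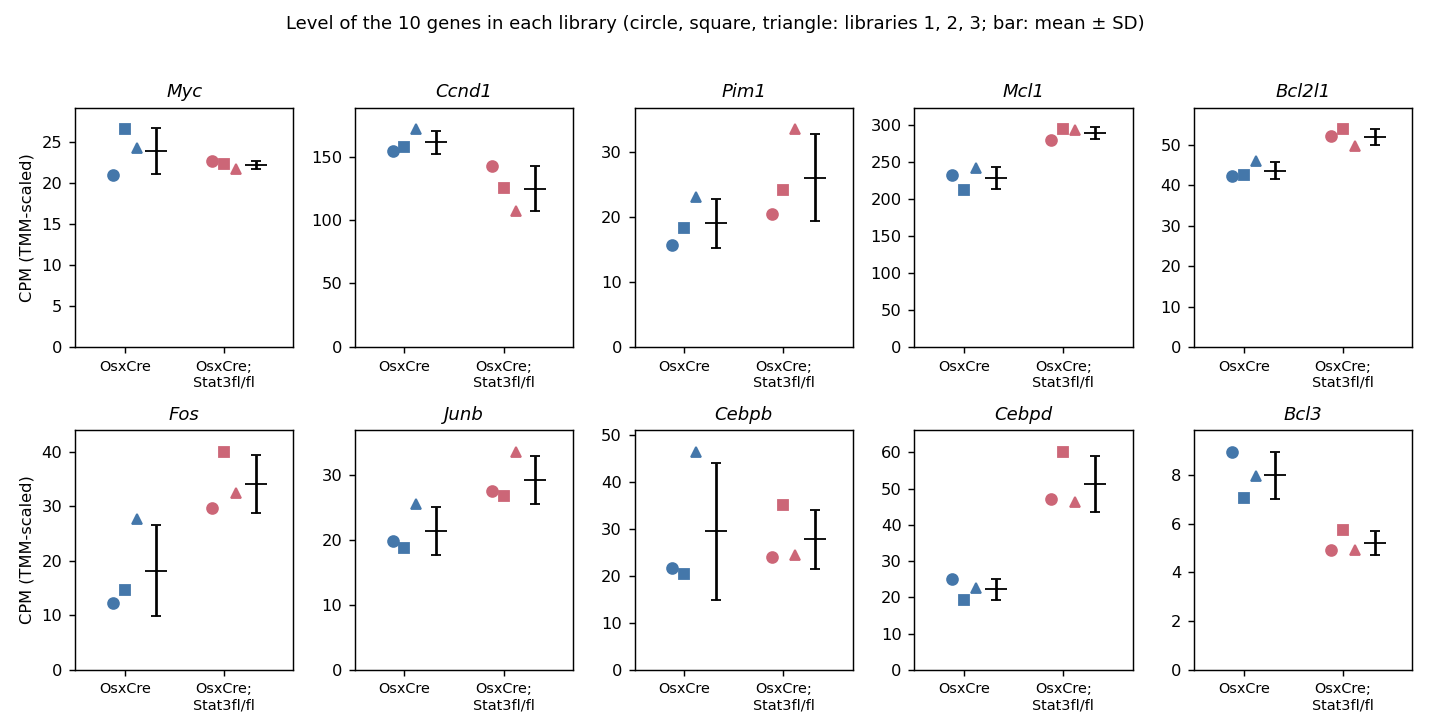
Level of each of the 10 genes (vertical axis, CPM after TMM scaling, starting at 0) in the 3 OsxCre libraries (blue) and the 3 libraries labelled OsxCre;Stat3fl/fl (red), with the mean ± SD beside them. The *Cebpd* points lie between 19.2 and 25.0 CPM in blue and between 46.3 and 60.1 CPM in red, whereas the *Cebpb* points overlap.

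*Cebpd*, on chromosome 16 from 15887286 to 15889545, encodes C/EBPδ, a leucine zipper factor of the acute phase response and of early adipocyte and osteoblast differentiation. It had 25.0, 19.2 and 22.5 CPM in OsxCre and 47.1, 60.1 and 46.3 CPM in the libraries labelled OsxCre;Stat3fl/fl. The 2 sets of values lay well apart, and the lowest value of the latter was far above the highest control. The fold change was 2.30 (95% interval 1.83 to 2.88), which is 1.20 on the log2 scale (standard error 0.14, edgeR quasi-likelihood adjusted p = 0.0142, n = 3 and 3). An exact permutation test of the 3 values against 3 gave p = 0.1, the smallest that this design allows. Its end overlaps the span of *Spidr*, a DNA repair gene with 60 to 112 counts per library, and the kit did not mark the strand. The adjusted p was 0.0712 without OsxCre;Stat3fl/fl library 3, with a log2 fold change of 1.27.

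*Cebpb*, on chromosome 2 from 167688915 to 167690432, encodes the related factor C/EBPβ, which is controlled both by transcription and by the choice of start codon. It had 21.6, 20.4 and 46.3 CPM in OsxCre and 23.9, 35.1 and 24.4 CPM in the libraries labelled OsxCre;Stat3fl/fl. OsxCre library 3 held the highest value of all 6 and the genotypes overlapped. The log2 fold change was -0.09 (standard error 0.32, 95% interval -0.84 to 0.66, edgeR adjusted p = 0.930). Without OsxCre library 3 it was 0.40, and the remaining values no longer overlapped. The SD of its log2 level within genotypes was 0.51, above that of 97.4% of the genes of like level.

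In the same library the adipocyte markers (5 genes) were highest as well, with a summed 520, 654 and 1878 CPM in OsxCre and 826, 1630 and 1367 CPM in the libraries labelled OsxCre;Stat3fl/fl. *Cebpa*, a C/EBP factor of mature adipocytes and of myeloid cells, had 23.9, 26.9 and 66.8 CPM in OsxCre and 25.0, 52.6 and 59.4 CPM in the other libraries. The part of adipocytes in the level of *Cebpb* was not tested. *Cebpd* had 22.5 CPM in OsxCre library 3, between the other controls, and was highest in OsxCre;Stat3fl/fl library 2, as were the adipocyte markers among the 3 libraries of that label. The part of adipocytes in the level of *Cebpd* was not tested either.

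The C/EBP genes were also set against each other by exon length. Such shares sum to 100%, so that a share can be lower where the level of the gene itself is not, and 3 libraries against 3 cannot reach a p of 0.05 for them. *Cebpd* made up 42.3%, 34.7% and 23.5% of the family (*Cebpa*, *Cebpb*, *Cebpd* and *Cebpg*) in OsxCre and 56.8%, 51.5% and 47.2% in the libraries labelled OsxCre;Stat3fl/fl. *Cebpb* made up 31.9% ± 5.33 (SD, n = 3) against 21.9% ± 2.11, and *Cebpg*, a partner without an activation domain, 10.9% ± 3.68 against 6.02% ± 1.19. For these 3 genes the genotypes did not overlap, and each gave an exact permutation p = 0.1. The lower share of *Cebpb* stands beside a log2 fold change of -0.09 in its own level. The share of *Cebpa* overlapped (exact permutation p = 0.6).

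**Figure D2:**
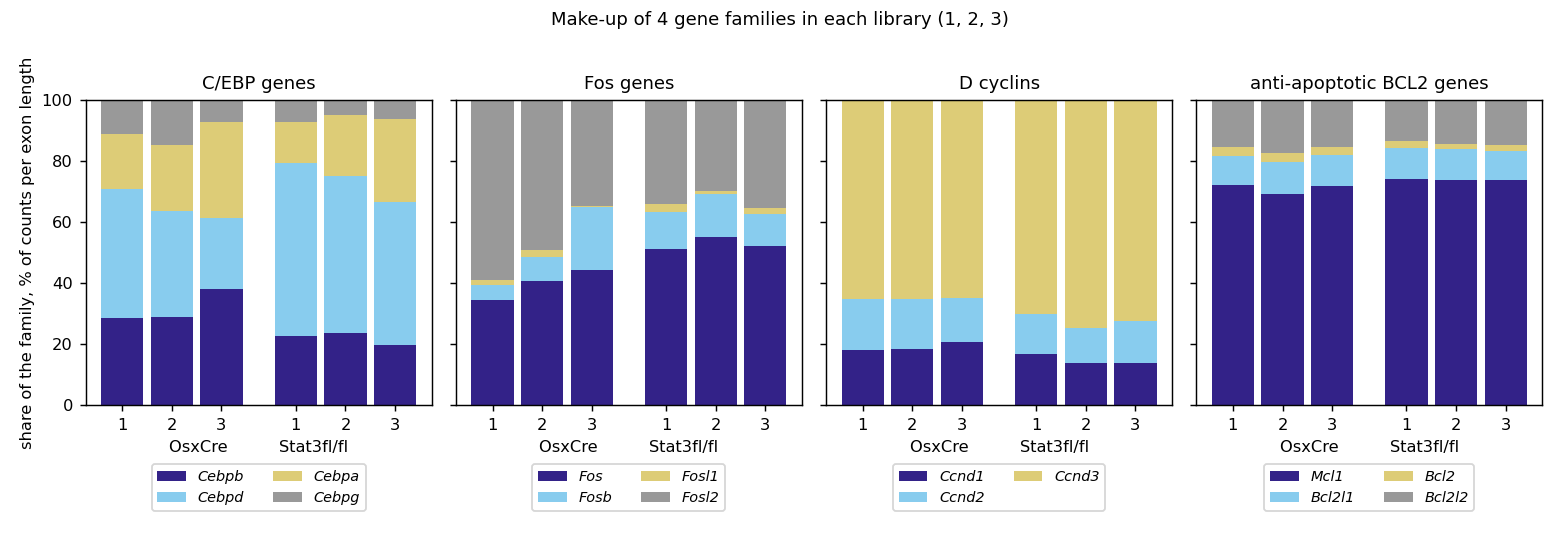
Share of each gene (vertical axis, % of the family's counts per exon length) in the C/EBP, Fos, D cyclin and anti-apoptotic BCL2 families, 1 bar for each of the 6 libraries. The *Cebpd* band is wider in all 3 libraries labelled OsxCre;Stat3fl/fl (47.2% to 56.8%) than in any OsxCre library (23.5% to 42.3%), and the *Fos* band likewise (51.3% to 55.0% against 34.5% to 44.2%).

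*Fos*, on chromosome 12 from 85473890 to 85477274, encodes c-Fos, a short-lived AP-1 subunit that pairs with Jun proteins and is needed for osteoclast formation. It had 12.2, 14.7 and 27.7 CPM in OsxCre and 29.8, 40.0 and 32.5 CPM in the libraries labelled OsxCre;Stat3fl/fl. The genotypes did not overlap, but OsxCre library 3 lay close to the lowest value of the latter. The fold change was 1.87 (95% interval 1.17 to 2.97, log2 fold change 0.90, edgeR adjusted p = 0.181). Without OsxCre library 3 the log2 fold change was 1.34 and the adjusted p was 0.0283, and DESeq2's Wald test on all 6 libraries gave an adjusted p of 0.0351. Without any of the other 5 libraries the adjusted p was 0.232 to 0.375, with a log2 fold change down to 0.69, and it was 0.147 by limma-voom and 0.246 with the replicate block. The spread of *Fos* within genotypes was above that of 95.9% of the genes of like level.

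*Junb*, on chromosome 8 from 84976909 to 84978748, encodes an AP-1 subunit that acts in the proliferation of osteoblasts and chondrocytes. It had 19.8, 18.7 and 25.6 CPM in OsxCre and 27.5, 26.8 and 33.6 CPM in the libraries labelled OsxCre;Stat3fl/fl. The highest control lay just under the lowest of the others, and with scaling by library totals the genotypes overlapped. The log2 fold change was 0.45 (standard error 0.15, 95% interval 0.10 to 0.80, edgeR adjusted p = 0.196).

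The paralogs of *Fos* and *Junb* gave a mixed picture. *Fosb* had 2.66, 4.46 and 20.8 CPM in OsxCre and 11.2, 16.4 and 10.4 CPM in the libraries labelled OsxCre;Stat3fl/fl, so that OsxCre library 3 was again the highest. *Fosl2*, with 43.9 to 54.1 CPM in OsxCre and 49.4 to 54.7 CPM in the other libraries, overlapped (log2 fold change 0.08), and *Fosl1* had at most 9 counts in any library and was not tested. *Fos* made up 39.9% ± 4.92 of the 4 Fos genes per exon length in OsxCre and 52.8% ± 1.95 in the libraries labelled OsxCre;Stat3fl/fl, without overlap (exact permutation p = 0.1). For *Jun* the log2 fold change was 0.48 (edgeR adjusted p = 0.274), and for *Jund* it was 0.10 (adjusted p = 0.767). *Junb* made up 11.7% ± 0.560 of the 3 Jun genes against 13.8% ± 2.62, with overlap.

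Of the other 9 AP-1 genes tested, 1 rose, *Batf2*, a dimer partner induced by interferon, with 0.856, 0.496 and 0.420 CPM in OsxCre and 3.84, 2.33 and 2.46 CPM in the libraries labelled OsxCre;Stat3fl/fl (log2 fold change 2.27, edgeR adjusted p = 0.0423). *Batf2* did not pass when any library was left out, and the median of the 9 was 0.08. Of the 22 other immediate-early genes, all were tested, 2 rose at an adjusted p under 0.05 and none fell. For both lists the share over all genes tested was 1.26% past the adjusted p. *Ctgf*, a matricellular protein induced by YAP and TGF-β, had 117, 105 and 160 CPM against 244, 267 and 249 CPM (log2 fold change 0.99, adjusted p = 0.0285). *Zfp36*, which destabilises AU-rich mRNAs, had 17.1, 16.4 and 21.9 CPM against 30.0, 34.6 and 31.5 CPM (log2 fold change 0.79, adjusted p = 0.0423).

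At an unadjusted p under 0.05, 7 of the 22 were higher and none lower, with *Cyr61*, *Klf6*, *Egr1*, *Klf2* and *Klf4* beside those 2, and the median log2 fold change of the list was 0.20. *Cyr61*, a relative of *Ctgf*, had 46.7, 46.3 and 84.2 CPM against 148, 194 and 122 CPM (log2 fold change 1.39, adjusted p = 0.0564). *Egr1*, a zinc finger factor induced along with *Fos*, had 31.3, 37.4 and 46.5 CPM against 56.9, 65.6 and 69.9 CPM (log2 fold change 0.74, adjusted p = 0.0663). Over all genes tested, 8.03% were higher and 8.34% lower at that p. The list was not uniform, since 16 genes had a positive and 6 a negative log2 fold change. The lowest was that of *Nr4a2* (-0.48, edgeR adjusted p = 0.330). *Nr4a2*, *Nr4a1* (log2 fold change 0.03) and *Atf3* (-0.04) overlapped between genotypes. Without OsxCre library 3, 5 of the 22 passed the adjusted p (*Ctgf*, *Zfp36*, *Cyr61*, *Egr1* and *Dusp1*), and without any of the other 5 libraries, or with the replicate block, 0 did. Of all 15600 genes tested, 106 passed it without OsxCre library 3, 12 to 97 without another library and 1 with the block. *Cyr61*, *Nr4a1*, *Nr4a2*, *Atf3* and *Dusp1* were picked from the list after their values were seen.

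**Figure D3:**
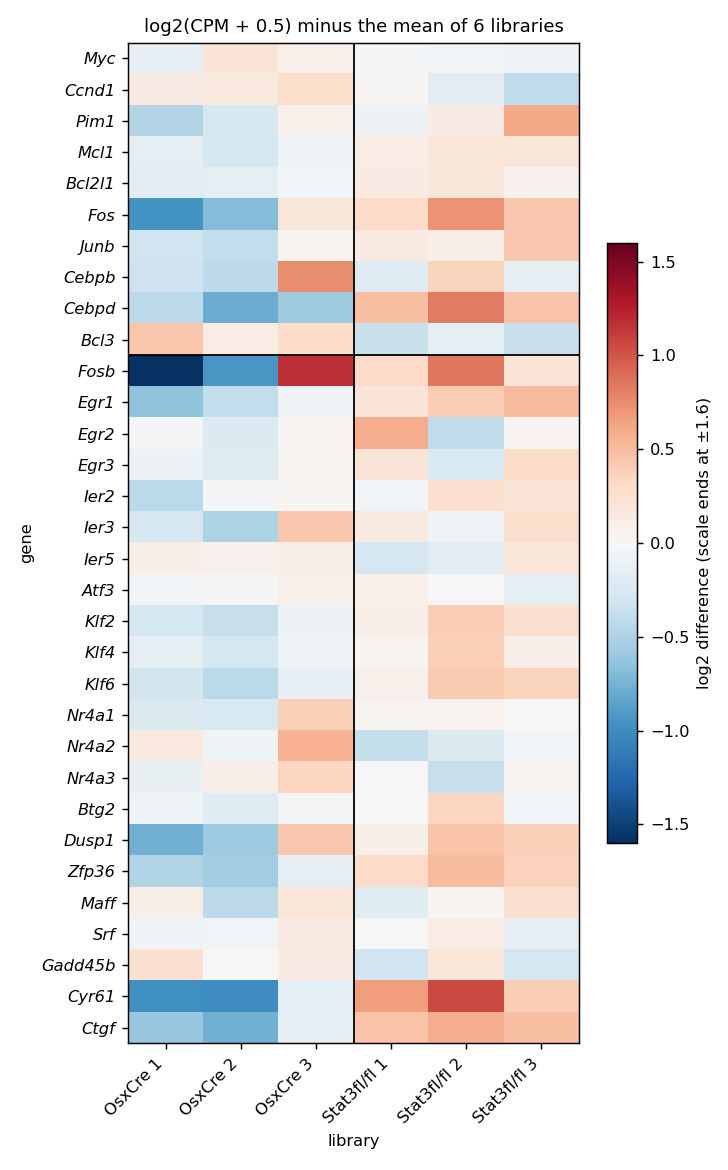
Colour scale of log2(CPM + 0.5) minus the mean over the 6 libraries (columns) for the 10 genes (upper rows) and the 22 other immediate-early genes (lower rows), red for above and blue for below the mean. OsxCre libraries 1 and 2 are blue for *Fos* (-0.95 and -0.69) while OsxCre library 3 is 0.20, and OsxCre library 3 is the reddest for *Cebpb* (0.75).

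The growth genes followed no common direction. *Myc*, on chromosome 15 from 61985341 to 61990361, encodes the helix-loop-helix factor that drives ribosome and nucleotide synthesis. It had 20.9, 26.6 and 24.3 CPM in OsxCre and 22.7, 22.3 and 21.8 CPM in the libraries labelled OsxCre;Stat3fl/fl. The 3 latter values lay inside the range of the controls. The log2 fold change was -0.11 (standard error 0.11, edgeR adjusted p = 0.710), and its 95% interval, 0.773 to 1.12 as a fold, allows a change in either direction.

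*Myc* made up 63.6% ± 1.67 of the 3 Myc genes per exon length in OsxCre and 65.4% ± 1.72 in the libraries labelled OsxCre;Stat3fl/fl, with overlap, whereas *Mycn* made up 13.4% ± 1.21 against 9.64% ± 1.90, without overlap. In the network of MYC partners and antagonists, none of 10 genes tested passed the adjusted p by edgeR. Unadjusted, 4 passed, *Mxi1* higher and *Mnt*, *Mxd3* and *Mycn* lower, where 16.4% of all genes tested passed. *Mnt*, a repressor that competes with MYC for MAX, had 33.8, 38.4 and 40.1 CPM against 25.5, 26.1 and 26.5 CPM (log2 fold change -0.52, adjusted p = 0.0509). *Mxi1*, another such repressor, had 38.2, 37.7 and 40.5 CPM against 49.4, 52.2 and 53.7 CPM (log2 fold change 0.42, adjusted p = 0.0522). Each lay just outside the threshold. Both passed by DESeq2 and with its size factors in the edgeR test, and neither by limma-voom. The median of the 10 was -0.01.

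Of 14 MYC target genes tested, 2 fell and none rose at an adjusted p under 0.05, which 1.26% of all genes tested passed. *Nme1*, a nucleoside diphosphate kinase, had 111, 114 and 112 CPM in OsxCre and 82.1, 73.9 and 68.2 CPM in the libraries labelled OsxCre;Stat3fl/fl (log2 fold change -0.58, adjusted p = 0.0227). *Cad*, the enzyme that starts pyrimidine synthesis, had 61.0, 61.5 and 61.2 CPM against 44.6, 44.9 and 38.2 CPM (log2 fold change -0.52, adjusted p = 0.0363). The controls were tightly grouped for both. *Cad* did not pass when any of the 6 libraries was left out, *Nme1* passed only without OsxCre;Stat3fl/fl library 1, and neither passed with the replicate block. At an unadjusted p under 0.05, 5 were lower and none higher (8.34% and 8.03% of all genes tested), and the median of the 14 was -0.04, close to that of all genes.

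*Ccnd1*, on chromosome 7 from 144929931 to 144939831, encodes cyclin D1, which activates CDK4 and CDK6 to phosphorylate RB. It had 155, 157 and 171 CPM in OsxCre and 143, 125 and 107 CPM in the libraries labelled OsxCre;Stat3fl/fl. All 3 controls were above the others, by the least against OsxCre;Stat3fl/fl library 1. The fold change was 0.775 (95% interval 0.649 to 0.925, log2 fold change -0.37, edgeR adjusted p = 0.161). Its span overlaps that of *Oraov1*, with 141 to 276 counts per library, and reads of the pair cannot be told apart by strand.

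Among the D cyclins per exon length, *Ccnd3* was the most abundant in every library. *Ccnd1* made up 19.1% ± 1.50 in OsxCre and 14.8% ± 1.61 in the libraries labelled OsxCre;Stat3fl/fl, *Ccnd2* 15.7% ± 1.35 and 12.8% ± 1.18, and *Ccnd3* 65.2% ± 0.145 and 72.5% ± 2.23. None of the 3 overlapped between genotypes (each exact permutation p = 0.1). *Ccnd2* itself had 211, 209 and 174 CPM against 167, 154 and 158 CPM (log2 fold change -0.31, edgeR adjusted p = 0.164), and for *Ccnd3* it was 0.15 (adjusted p = 0.450).

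Of the 12 other genes of the G1 machinery that were tested, none passed the adjusted p by edgeR. At an unadjusted p under 0.05 there were 5 lower (*E2f1*, *Ccnd2*, *Ccne1*, *Ccne2* and *Cdk4*) and 1 higher, the CDK inhibitor *Cdkn1a*. Over all genes tested, 8.34% were lower and 8.03% higher at that p. *E2f1*, the factor released when RB is phosphorylated, had 26.1, 26.0 and 28.2 CPM against 20.3, 16.2 and 13.7 CPM (log2 fold change -0.68, adjusted p = 0.0825). *Cdkn1a*, which encodes p21, had 263, 242 and 244 CPM against 298, 365 and 285 CPM (log2 fold change 0.34, adjusted p = 0.178). DESeq2 called *E2f1* and limma-voom none, and the median of the 12 was -0.10.

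*Pim1*, on chromosome 17 from 29490785 to 29496111, encodes a serine/threonine kinase with no need of an activating phosphorylation, whose output follows its mRNA. It had 15.7, 18.3 and 23.2 CPM in OsxCre and 20.5, 24.1 and 33.6 CPM in the libraries labelled OsxCre;Stat3fl/fl. The highest control lay between the lower values of the other genotype. The log2 fold change was 0.45 (95% interval -0.04 to 0.94, edgeR adjusted p = 0.341), and it was 0.23 without OsxCre;Stat3fl/fl library 3. *Pim3* had 42.6, 52.2 and 63.5 CPM against 72.2, 89.4 and 80.9 CPM (log2 fold change 0.61, adjusted p = 0.105), whereas for *Pim2* it was -0.19 (adjusted p = 0.819). *Pim1* made up 28.9% ± 0.761 of the 3 kinases per exon length against 27.2% ± 4.96, with overlap.

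Neither of the survival genes passed the adjusted p by edgeR, and both passed unadjusted. *Mcl1*, on chromosome 3 from 95656944 to 95663179, encodes a short-lived protein that holds BAK and BIM in check. It had 232, 212 and 242 CPM in OsxCre and 280, 294 and 292 CPM in the libraries labelled OsxCre;Stat3fl/fl. The genotypes were clearly separate. The fold change was 1.26 (95% interval 1.11 to 1.44, log2 fold change 0.34, edgeR adjusted p = 0.0957), and DESeq2's Wald test gave an adjusted p of 0.00951.

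*Bcl2l1*, on chromosome 2 from 152758732 to 152833803, encodes BCL-xL and, by another splice site, the pro-apoptotic BCL-xS, which a gene-level count does not separate. It had 42.2, 42.5 and 46.0 CPM in OsxCre and 52.2, 53.8 and 49.7 CPM in the libraries labelled OsxCre;Stat3fl/fl. All 3 values of the latter were above the controls, and its spread within genotypes was low, above that of only 10.2% of the genes of like level. The fold change was 1.19 (95% interval 1.05 to 1.35, log2 fold change 0.25, edgeR adjusted p = 0.166). Its span overlaps that of *Cox4i2*, with 25 to 62 counts per library.

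Per exon length, *Mcl1* made up 71.2% ± 1.52 of the 4 anti-apoptotic genes (*Bcl2*, *Bcl2l1*, *Bcl2l2* and *Mcl1*) in OsxCre and 74.0% ± 0.065 in the libraries labelled OsxCre;Stat3fl/fl, without overlap (exact permutation p = 0.1). The share of *Bcl2l1* was 9.66%, 10.3% and 10.1% in OsxCre and 10.2%, 9.97% and 9.26% in the others, with overlap (exact permutation p = 0.6). The size of this share depends on the length used, here a union of exons of 4734 bases, where the longest transcript has 2417. The log2 fold change was -0.09 for *Bcl2* (edgeR adjusted p = 0.814) and 0.09 for *Bcl2l2* (adjusted p = 0.636). Of the 14 other BCL2 family genes tested, 1 rose at an adjusted p under 0.05, where 1.26% of all genes tested passed. It was *Bmf*, a pro-apoptotic BH3-only protein that binds these survival proteins. It had 41.0, 38.6 and 39.9 CPM against 56.7, 71.3 and 62.8 CPM (log2 fold change 0.67, edgeR adjusted p = 0.0252), and with a library left out it passed only without OsxCre;Stat3fl/fl library 1. At an unadjusted p under 0.05, *Bmf* and *Bcl2a1b* were higher and *Bok* lower (8.03% and 8.34% of all genes tested), and the median of the 14 was 0.03.

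*Bcl3*, on chromosome 7 from 19808462 to 19822824, encodes an atypical IκB protein that is found mostly in the nucleus and binds p50 and p52 dimers. It was the least counted of the 10 genes, with 94, 71 and 95 counts (8.95, 7.04 and 7.97 CPM) in OsxCre and 41, 47 and 42 counts (4.92, 5.76 and 4.91 CPM) in the libraries labelled OsxCre;Stat3fl/fl. All 3 controls were higher. The fold change was 0.651 (95% interval 0.485 to 0.874, log2 fold change -0.62, edgeR adjusted p = 0.156). The neutrophil markers were lower in the same libraries (280 to 470 against 110 to 195 CPM summed), and their part in the *Bcl3* values was not tested.

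Of 9 other genes of the NF-κB and IκB family tested, 1 rose and none fell at an adjusted p under 0.05, which 1.26% of all genes tested passed. *Nfkbia*, which encodes the classical inhibitor IκBα, had 56.3, 59.1 and 53.2 CPM in OsxCre and 79.7, 81.5 and 74.3 CPM in the libraries labelled OsxCre;Stat3fl/fl (log2 fold change 0.48, edgeR adjusted p = 0.0345). For *Nfkbiz*, an atypical IκB like *Bcl3*, it was -0.11 (adjusted p = 0.747). With library-total scaling *Nfkbia* did not pass the adjusted p, nor when any library was left out, and the median of the 9 was 0.09.

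**Figure D4:**
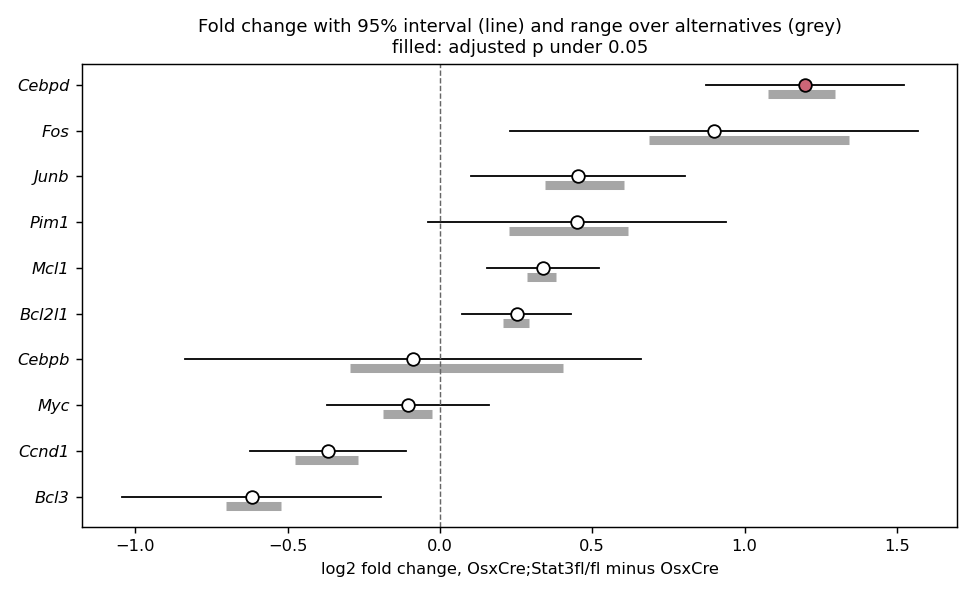
Log2 fold change of each of the 10 genes (horizontal axis, OsxCre;Stat3fl/fl minus OsxCre) with its 95% interval (line) and, in grey, the range of the estimate over other scalings, filters, tests and left-out libraries. The *Cebpd* point is at 1.20 and its grey range begins at 1.08, whereas the grey range of *Cebpb* runs from -0.29 to 0.40 across 0.

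The 10 genes differed widely in level. Per kilobase of exon, *Mcl1* was highest, with 65.5 ± 4.40 CPM (SD, n = 3) in OsxCre, followed by *Ccnd1* with 42.0 ± 2.37. *Cebpb* (19.6 ± 9.73) and *Cebpd* (18.9 ± 2.46) came next and did not differ beyond their spread. *Junb* (11.8 ± 2.04), *Pim1* (9.67 ± 1.92), *Bcl2l1* (9.20 ± 0.446), *Myc* (8.81 ± 1.04) and *Fos* (7.73 ± 3.54) lay within the spread of their neighbours, and *Bcl3* was lowest with 3.21 ± 0.384. The length used was the union of exons, which for *Bcl2l1* is 4734 bases against 2417 for its longest transcript. The place of *Bcl2l1* in this order therefore depends on the length chosen. In the libraries labelled OsxCre;Stat3fl/fl, *Mcl1* again led with 82.8 ± 2.26 CPM per kilobase, and *Cebpd* was second with 43.3 ± 6.55, above *Ccnd1* with 32.5 ± 4.66.

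The libraries shared the extremes unevenly. OsxCre library 1 was lowest for 4 of the 10 genes (*Myc*, *Bcl2l1*, *Pim1* and *Fos*) and OsxCre library 2 for 4 others (*Mcl1*, *Junb*, *Cebpb* and *Cebpd*). OsxCre;Stat3fl/fl library 2 was highest for 4 (*Mcl1*, *Bcl2l1*, *Fos* and *Cebpd*). Without OsxCre library 3, which held the highest *Ccnd1* and *Cebpb*, 9 of the 10 genes had no overlap between genotypes (33.3% of all genes tested at 2 against 3 libraries). In that fit 2 of the 10 passed the adjusted p, *Fos* and *Cebpd*, and 106 of all 15600 genes tested passed it. Without OsxCre;Stat3fl/fl library 3, none of the 10 passed the adjusted p by edgeR, where only 12 of all 15600 genes tested did. There 6 of the 10 passed unadjusted, and the share of all genes is not given for that fit.

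The genes whose centred log2 CPM over the 6 libraries lay nearest to those of the 4 members that spanned more than 1 on the log2 scale were also listed, as a description of 6 libraries. These genes were picked for values like those of the member, so a like difference between genotypes in them follows from the choice. For *Cebpd* these were *Hspb1*, *1500017E21Rik*, *Zfp366*, *LOC102635939* and *Hspb7*, with a root mean square difference of 0.11 to 0.14. *Hspb7*, a small heat shock protein of heart and skeletal muscle, had 156, 147 and 178 CPM in OsxCre and 311, 395 and 276 CPM in the libraries labelled OsxCre;Stat3fl/fl. The summed skeletal muscle markers were also higher in the latter libraries (22365 to 23031 against 24184 to 33122 CPM, ratio of means 1.27), although *Myh4* of that list fell. The part of muscle in the *Cebpd* values was not tested.

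For *Fos* the nearest were *Orm1*, *Ddit4*, *Gm9243*, *TrnL1* and *Mir3071* (0.09 to 0.17), of which *Ddit4*, an inhibitor of mTORC1 induced by stress and glucocorticoids, had 34.5, 31.3 and 60.9 CPM against 71.8, 87.0 and 68.7 CPM. For *Cebpb* they were *Slc25a20*, *Ifi27*, *Fam195a*, *Gadd45g* and *Rgag1* (0.08 to 0.09). *Slc25a20*, the mitochondrial carnitine carrier, had 78.3, 85.8 and 175 CPM in OsxCre and 87.0, 139 and 97.8 CPM in the libraries labelled OsxCre;Stat3fl/fl. For *Pim1* they were *Aldh6a1*, *Armcx5*, *Gm7517*, *Gm7367* and *Gm6493* (0.08 to 0.11).

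Further genes known as STAT3 targets, and the pathway itself, were counted in the same fit. The lists share genes and are not separate evidence. *Egr1*, *Klf4*, *Cdkn1a*, *Bcl2* and *Fosl2*, for example, are also in lists above, and *Osmr* and *Socs3* are in both the target and the pathway list. Of 17 other STAT3 target genes tested, none passed the adjusted p by edgeR, and the median over the 17 was 0.13. At an unadjusted p under 0.05 there were 6 higher and 1 lower (8.03% and 8.34% of all genes tested). DESeq2 called 4 (*Lcn2*, *Osmr*, *Il4ra* and *Egr1*) and limma-voom none. *Il4ra*, a cytokine receptor chain, had 48.7, 39.4 and 45.6 CPM in OsxCre and 68.0, 58.0 and 72.4 CPM in the libraries labelled OsxCre;Stat3fl/fl (log2 fold change 0.57, adjusted p = 0.0657). *Socs3*, the feedback inhibitor most used as a readout of STAT3, had 35.8, 29.8 and 37.6 CPM against 44.9, 38.7 and 39.3 CPM (log2 fold change 0.25, adjusted p = 0.324).

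Of 15 genes of the pathway tested, none passed the adjusted p by edgeR, and the median was 0.06. Unadjusted, 3 were higher, among them *Osmr* and *Il6ra*, where 8.03% of all genes tested were higher. DESeq2 called *Osmr* and limma-voom none. *Osmr*, the oncostatin M receptor chain, had 31.5, 24.5 and 25.5 CPM against 40.8, 39.8 and 38.7 CPM (log2 fold change 0.55, adjusted p = 0.0683). *Il6ra* had 9.80, 9.02 and 6.13 CPM against 10.6, 14.2 and 18.9 CPM (log2 fold change 0.81, adjusted p = 0.179). None of the 4 other C/EBP genes tested passed the adjusted p by edgeR, DESeq2 or limma-voom (median log2 fold change -0.09). *Ddit3* and *Cebpg* were lower unadjusted, with log2 fold changes of -0.31 and -0.29, where 8.34% of all genes tested were lower.

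**Figure D5:**
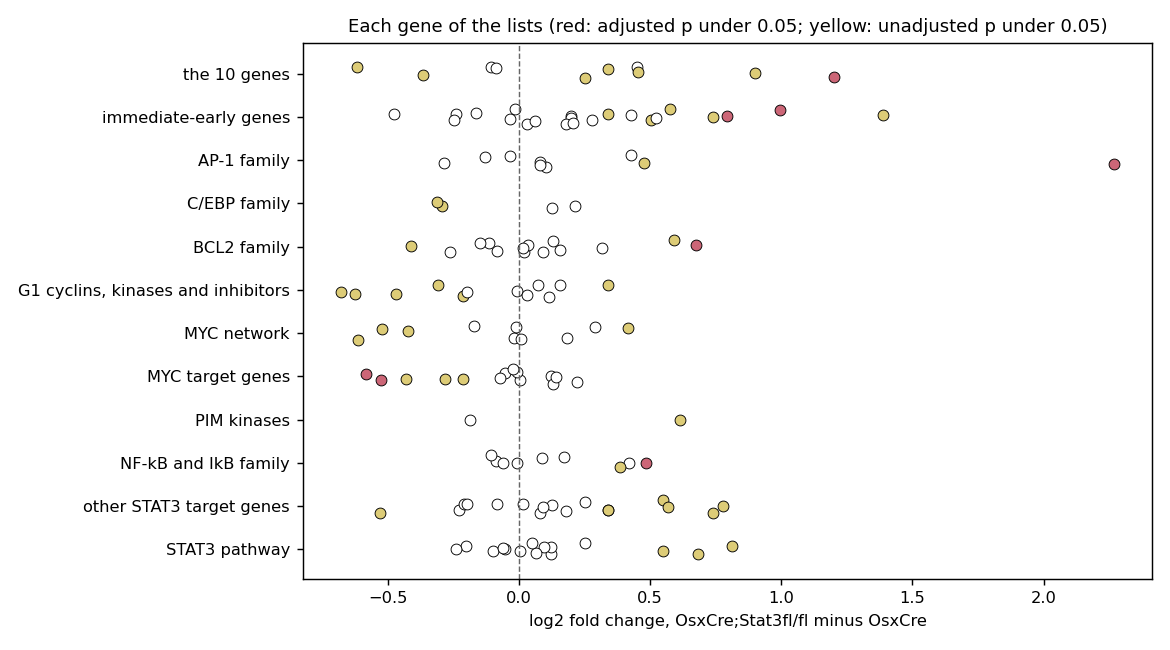
Log2 fold change (horizontal axis, OsxCre;Stat3fl/fl minus OsxCre) of each tested gene in the 10 genes and 11 related lists, red for an adjusted p under 0.05 and yellow for an unadjusted p under 0.05. Over the related lists 116 of 127 genes were tested, 5 are red to the right of 0 and 2 to the left.

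Over all the related lists together, with each gene counted once, 116 of 127 genes were tested. At an adjusted p under 0.05, 5 rose and 2 fell, and the median log2 fold change was 0.03. At an unadjusted p under 0.05 there were 21 higher and 16 lower. Over all genes tested, 1.26% passed the adjusted p and 16.4% the unadjusted p.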

How the data were processed

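RNA was extracted from parietal bone with Trizol, and libraries were made with the Illumina TruSeq RNA Sample Prep kit, which does not mark strand. The labels state polyadenylated RNA and the study total RNA. The authors deposited whole-number counts per gene symbol for each library, without normalization. The labels' processing notes name HISAT2 and GRCm38, whereas the study's methods name TopHat and mm9, and the counting program is not given in the sources used here. The genes and lists were chosen with earlier results of these data known.

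Low counts were removed with filterByExpr (at least 10 in enough libraries and 15 in total), which left 15600 of 44556 genes. After TMM scaling, edgeR 4.0.16 (quasi-likelihood, R 4.3.3) compared both genotypes. Its p-values are two-sided and were adjusted over all genes tested by the method of Benjamini and Hochberg. CPM of single genes use the TMM-scaled totals, except those of *Xist*, and summed marker CPM use the unscaled totals. Family shares were CPM per exon length (GENCODE on NCBIM37), compared by an exact permutation test over samples, whose smallest p for 3 against 3 is 0.1. Gene positions and promoters came from RefSeq GRCm38.p6. Named beside the 10 genes were *Stat3*, their paralogs, list genes past an adjusted p of 0.05 or else the 2 with the smallest p, and the 5 genes nearest in centred log2 CPM to each member spanning more than 1. Others, such as list genes past an unadjusted p, *Cyr61*, *Dusp1*, *Nr4a1*, *Nr4a2*, *Atf3*, *Cdkn1a*, *Socs3* and the marker genes, were named after their values were seen. Some list genes are in the counts and are not reported singly here. The study gives 3 mice of each genotype for the RNA, and the labels name the mice as littermates without saying which library came from which animal. The p-values measure the spread between libraries, and a technical part of it cannot be set apart. Libraries of a genotype were checked for duplicates, and none were found (chi-square per degree of freedom 7.51 to 15.6). Intervals and floors cover the spread and counting error only. The fit was tested on simulated data in which 200 genes changed 2-fold. It recovered 115 of the 190 of these that were tested (60.5%) and made 16 other calls. Alternatives were other scalings, no filter, DESeq2 1.42.0, limma-voom (limma 3.58.1), leaving out each library, the replicate number as a block, and transcript length. Tables and plots used Python 3.11.15, pandas 2.3.3 and matplotlib 3.10.9.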

Additional observations from a re-analysis of the deposited data

How the results depend on the processing

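Among the 10 genes the number past an adjusted p of 0.05 (1, *Cebpd*) was 3 by DESeq2's Wald test (*Mcl1*, *Fos* and *Cebpd*), 0 with the replicate block (8 unadjusted), and 0 to 2 when a library was left out. It was 1 with the other scalings, without the filter and by limma-voom. The number past an unadjusted p of 0.05 was 6 to 8 over the alternatives. For *Cebpd* the log2 fold change was 1.20 with the replicate block (adjusted p = 0.0979), and over all alternatives the adjusted p ran from 9.01e-10 to 0.0979. The log2 fold change of *Cebpb* was 0.40 without OsxCre library 3 and 0.0084 without OsxCre;Stat3fl/fl library 1, within a leave-one-out range of -0.29 to 0.40. The difference in the share of *Bcl2l1* was -0.392 to 0.076 percentage points when a library was left out, and 0.076 without OsxCre;Stat3fl/fl library 3. The 7 genes of the related lists past the adjusted p became 16 without the filter, 18 by DESeq2's Wald test, 0 with the replicate block and 0 to 5 when a library was left out, with 0 without OsxCre library 1 or 2 or OsxCre;Stat3fl/fl library 2 or 3. Leaving out a library uses fewer samples, and the other causes were not tested.

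Same-numbered libraries had correlations of -0.103, -0.524 and -0.077 between their deviations from the genotype means, and the other pairs had -0.455 to 0.519. With 3 libraries the deviations cancel out within each genotype, so these correlations depend on each other. They cannot settle whether the replicate numbers pair the libraries. Over all genes, the 196 past the adjusted p became 1 with the block, 538 by DESeq2 and 428 without the filter, and 12 to 106 when a library was left out. The 12 came without OsxCre;Stat3fl/fl library 3 and the 106 without OsxCre library 3. Depth limits *Bcl3* most, with 41 to 95 counts per library.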
